A study of Homo sapiens with 6 samples.

Results

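The aryl hydrocarbon receptor axis is described here through 7 genes: the receptor AHR, its partners ARNT and ARNT2, the repressor AHRR, the feedback regulator TIPARP, and the target enzymes CYP1A1 and CYP1B1. They were found by gene symbol, and make up 7 of the 30618 genes in the table of read counts. Of these, 6 held enough reads to enter a fit across 16749 genes, and AHRR did not. The 7 genes were chosen with the results of this comparison already known, so their own values are given as a description with no p-value printed. How many passed the limits is counted beside all tested genes, and that count is a description too.

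The libraries came from ARPE-19, an established human line of retinal pigment epithelium (RPE), the pigmented cell layer behind the photoreceptors. All 6 libraries were made from cells in 50 mM glucose, and no library from a lower glucose level was analysed here. In 3 of them the cells had received a non-targeting control siRNA (NC), and in the other 3 an siRNA against EIF1, a translation initiation factor that helps the ribosome choose its start codon (siEIF1), both delivered by lipid transfection. The 6 polyadenylated RNA libraries were described as 3 biological replicates a group, prepared side by side and sequenced in 1 run, and the time from transfection to RNA harvest is stated for RT-qPCR and immunoblotting but not for these sequencing libraries in the sources used here. Both groups therefore represent a single cell line under high glucose after transient knockdown with siRNA.

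AHR is a ligand-activated transcription factor of the basic helix-loop-helix PAS family. Without ligand it is held in the cytosol by HSP90 and the co-chaperone PTGES3 (p23). With ligand it moves into the nucleus, pairs with ARNT or ARNT2 and binds response elements with the core GCGTG, where it raises transcription of CYP1A1, CYP1B1, AHRR and TIPARP. AHRR competes with AHR for ARNT, and TIPARP, a mono-ADP-ribosyltransferase, restrains the receptor, so both close a negative feedback loop. CYP1A1 and CYP1B1 are cytochrome P450 monooxygenases of polycyclic aromatic hydrocarbons, estrogens and retinoids, and loss of CYP1B1 is a known cause of primary congenital glaucoma.

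The core letters were looked for in RefSeq promoter sequences (GRCh38.p14), which run from 250 bases before to 50 bases after each start site. Of the 7 genes, 5 had an entry, with 8 promoters between them. CYP1B1 and ARNT2 had no entry, so their promoters were not searched. Of the 5 genes, 4 held GCGTG on either strand, in 5 of the promoters. The same letters stood in 36.5% of all 35116 promoters, and the longer element TTGCGTG, which contains the core, stood in 1.16% of all promoters and in 0 of the 5 genes' promoters. The matches below are printed 5′ to 3′ on the strand of the gene, in lower case with the core in capitals, and they are shown because they place the receptor's recognition letters next to the start sites of the genes whose reads are described. CACGC in TIPARP is the core read on the opposite strand. Both TIPARP matches lie in its promoter 1, and its promoters 2 and 3 held none. A match of letters is a description of the sequence and does not show binding. Sequence outside these windows was not searched, so elements further from the start sites would be missed.
CYP1A1, 57 bases before the start, chr15:74725571-74725595, minus strand: agggaaggagGCGTGgccacacgta
AHRR, 30 bases before the start of its first promoter, chr5:321674-321698, plus strand: cgggcggctcGCGTGccggggtggg
AHRR, 42 bases before the start of its second promoter, chr5:322558-322582, plus strand: agaagggtggGCGTGtgcgcgcgtt
AHRR, 247 bases before the start of its second promoter, chr5:322360-322377, plus strand: ggcGCGTGacaggcaggg
TIPARP, 208 bases before the start, chr3:156674372-156674396, plus strand: cgagaaaggaCACGCcccctcgcgg
TIPARP, 142 bases before the start, chr3:156674438-156674462, plus strand: aacgaacgcgCACGCgcgcgcaggg
AHR, 37 bases after the start, chr7:17298679-17298701, plus strand: tgttccgagaGCGTGccccggac

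The promoter of ARNT held no core match in this window. A further pair of sequences belongs to CYP1B1, because the study measured this gene by RT-qPCR as well, which was not analysed here. Both primers lie in exon 3 of 3, in the 3′ UTR of the 5218-base canonical transcript, and each matched 1 gene exactly. The forward primer is antisense to the transcript and covers bases 5076 to 5097 of it, and the reverse primer is the sense strand from 4955 to 4976, so that the product spans 143 bases.
CYP1B1 forward primer, chr2:38067630-38067651, plus strand: tttggtaatggtgtcccagtat
CYP1B1 reverse primer, chr2:38067751-38067772, minus strand: gtgtgtgcataatagctacagt

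Library size ranged from 26499929 to 31431479 counted reads, and replicates differed by more than sampling noise alone would give, by 3.03 to 5.96 times within NC and 7.44 to 14.1 times within siEIF1 (chi-square over its degrees of freedom). EIF1 itself had 294.35, 281.08 and 281.28 FPKM (read fragments scaled to transcript length and library size, a level per length) in the NC libraries and 24.28, 22.68 and 23.5 in the siEIF1 libraries. It fell by 3.58 on the log2 scale of counts (SE 0.0549, adjusted p = 1.08e-13 by the quasi-likelihood test of edgeR, corrected by Benjamini-Hochberg across the 16749 genes). Of the 14 RPE markers looked for, 12 had a row, while RPE65 and TTR had none. BEST1, MITF, OTX2, KRT8 and KRT18 were present, and SERPINF1 stood at 1.7 FPKM in NC as a group mean. LRAT, PMEL and RLBP1 were low, at 0.12, 0.27 and 0.24 FPKM in NC. The pigment enzymes TYR, TYRP1 and DCT were near 0 in both groups. The summed level of these RPE markers was 522.8 to 541.7 FPKM in NC and 565.6 to 611.6 in siEIF1. KRT18 (326.5 to 382 FPKM as group means) and KRT8 (113 to 131.5) made up the difference, while BEST1 was at 66 and 52 FPKM and did not pass. Of 9 tested RPE markers 3 rose by edgeR's test (33.3%, against 10.2% of all tested genes). They were KRT18, KRT8 and RLBP1, a retinoid-binding protein at 44 reads over NC and 140 over siEIF1 (log2 fold change 1.55, edgeR adjusted p = 0.00102). The sum of the 8 measured markers of other retinal, vascular and blood cells was 7.95 to 10.58 in NC and 12.44 to 14.78 in siEIF1, most of it PDGFRB, with the endothelial markers PECAM1, CDH5 and VWF at or near 0. The part of these shifts in the values below was not tested.

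Knockdown of EIF1 came with opposite differences in the 2 target enzymes of the receptor. CYP1B1 was higher in every siEIF1 library than in any NC library, at 2.18-fold in the fit, whereas CYP1A1 was lower in every siEIF1 library, at 0.689-fold. TIPARP was also lower in every siEIF1 library, at 0.814-fold. AHR and ARNT, the receptor and its main partner, had overlapping values in both groups, and ARNT2 was 1.19-fold higher. AHRR gave too few reads to be fitted. The 7 genes thus did not differ from NC in a single direction.

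Of the 6 fitted genes, 4 passed an adjusted p of 0.05, 2 of them higher and 2 lower, where 20.6% of all 16749 tested genes passed, 10.2% higher and 10.4% lower. With the added limit of a fold above 2 or below 0.5, CYP1B1 was the 1 gene called, against 1.71% of all tested genes, or 0.4% higher and 1.31% lower. Read counts scaled to library size (CPM) did not overlap between the groups for 4 of the 6, against 37.1% of all tested genes. Since the 7 genes were picked from this comparison, these counts only describe them. In these bulk libraries fewer cells of a type and less RNA per cell cannot be told apart.

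**Figure D1:**
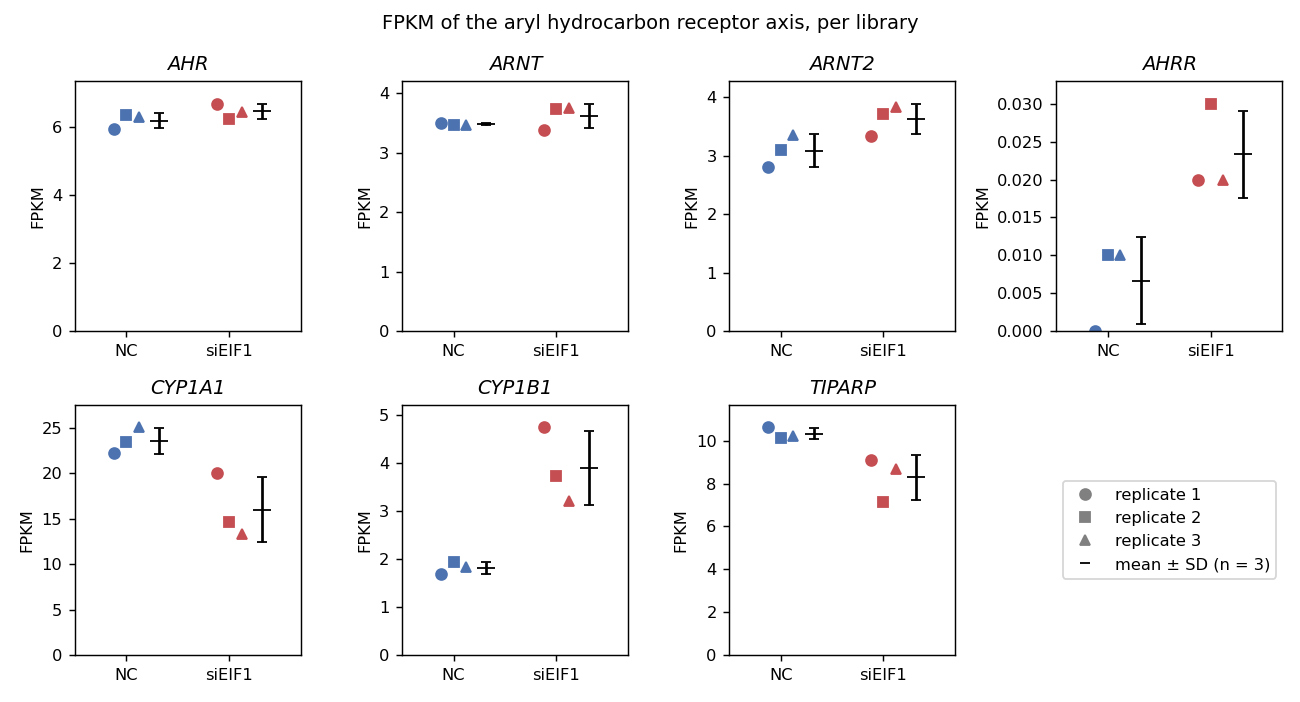
FPKM (y axis, linear from 0, with its own scale in each panel) of the 7 genes in the NC and siEIF1 libraries, with each library as a symbol and the mean ± SD (n = 3) as the black mark. CYP1B1 sits between 1.69 and 1.94 in NC and between 3.21 and 4.74 in siEIF1, CYP1A1 and TIPARP lie lower in every siEIF1 library, and the groups of AHR and ARNT overlap.

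AHR (ENSG00000106546.14) spans chr7:16916359-17346152 on the plus strand, with 11 exons in its canonical transcript (GRCh38, GENCODE annotation, as for all gene positions and exon counts). Its level was 5.94, 6.34 and 6.28 FPKM in the NC libraries and 6.68, 6.24 and 6.44 in the siEIF1 libraries, from 1554 to 2065 reads a library. The groups overlapped, with NC replicate 1 the lowest of the 6 and siEIF1 replicate 1 the highest. The means were 6.19 ± 0.216 and 6.45 ± 0.22 FPKM (SD, n = 3 each), and the fitted log2 fold change of counts was 0.08 (SE 0.0513). Of all tested genes, 35.9% had a higher log2 fold change. A long non-coding RNA on the opposite strand, AC003075.4, overlaps AHR and had 74 to 118 reads a library, beside the 1554 to 2065 of AHR.

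ARNT (ENSG00000143437.21), the common partner of AHR and of the hypoxia-inducible factors, lies on the minus strand at chr1:150809713-150876708 and has 22 exons. The NC libraries had 3.5, 3.47 and 3.47 FPKM and the siEIF1 libraries 3.39, 3.73 and 3.75. The siEIF1 libraries fell on both sides of the NC libraries, with replicate 1 below all of them and the other two above. Its log2 fold change was 0.08 (SE 0.0636). That value was 0.12 without siEIF1 replicate 1 and 0.04 without siEIF1 replicate 2.

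ARNT2 (ENSG00000172379.21), the paralog of ARNT known mainly from neural and developing tissue, lies on the plus strand at chr15:80404350-80597933 and has 19 exons. It was present at a level close to that of ARNT, with 2.8, 3.1 and 3.36 FPKM in NC and 3.34, 3.71 and 3.84 in siEIF1. On the FPKM scale siEIF1 replicate 1 lay just under NC replicate 3, so the groups touched. In CPM they did not, with 26.5, 29.58 and 31.34 in NC against 31.89, 36.34 and 35.93 in siEIF1. The log2 fold change was 0.25 (SE 0.0747), and it ran from 0.19 to 0.31 when each library was left out in turn.

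The ratio of FPKM of AHR over ARNT, the receptor to its main partner, overlapped between the groups. It was 1.7, 1.83 and 1.81 in NC and 1.97, 1.67 and 1.72 in siEIF1. ARNT over ARNT2 was 1.25, 1.12 and 1.03 in NC and 1.01, 1.01 and 0.977 in siEIF1. This ratio was lower in each siEIF1 library than in any NC library, but narrowly, at 1.01 against 1.03 where the groups came closest. In FPKM both ARNT and ARNT2 overlapped between the groups.

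AHRR (ENSG00000063438.20), the repressor, lies on the plus strand at chr5:321714-438291 and has 11 exons. It was close to the limit of these libraries: 1, 4 and 3 reads in NC and 7, 11 and 7 in siEIF1, 8 reads against 25 over the groups. The corresponding levels were 0.0, 0.01 and 0.01 FPKM in NC and 0.02, 0.03 and 0.02 in siEIF1. Every siEIF1 library had more reads than any NC library, but a single library rested on 1 to 11 reads, and the gene did not pass the filter on low counts.

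The reading of AHRR is limited further by its neighbour. PDCD6-AHRR, a readthrough gene that joins PDCD6, a calcium-binding protein of membrane traffic, to AHRR, covers AHRR on the same strand. Reads in shared exons belong to both gene models, and how the authors' counting divided them was not given in the sources used here. The readthrough had 63, 72 and 89 reads in NC and 125, 112 and 128 in siEIF1, and the groups did not overlap. Its log2 fold change was 0.59 (SE 0.154, edgeR adjusted p = 0.0149). It no longer passed without NC replicate 1 (log2 fold change 0.51, adjusted p = 0.0665) or without NC replicate 2 (0.55, adjusted p = 0.0608), nor by limma on log2(FPKM + 0.1). PDCD6 had 117, 144 and 134 reads in NC and 133, 148 and 227 in siEIF1, which overlapped (log2 fold change 0.25, SE 0.183, edgeR adjusted p = 0.373), and siEIF1 replicate 3 stood well above the rest. Its values are uncertain for the same reason.

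**Figure D2:**
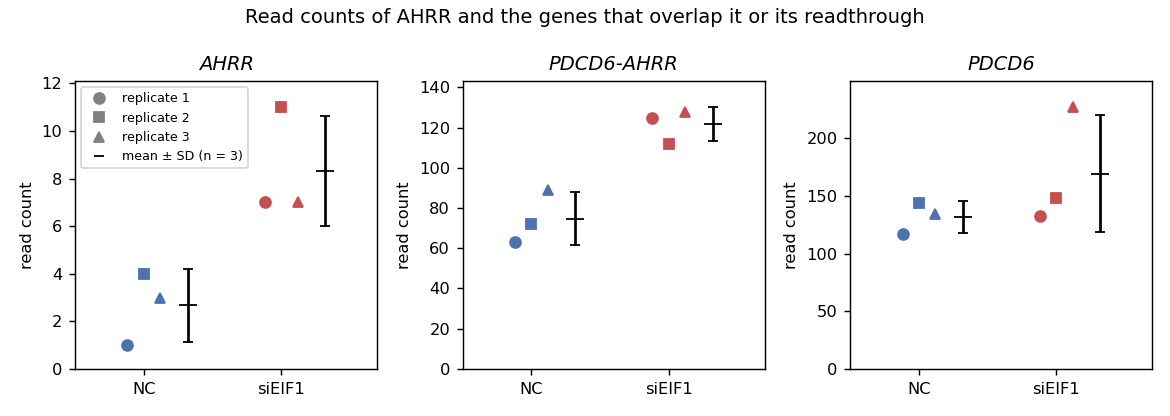
Read counts (y axis, linear from 0) of AHRR, of the readthrough gene PDCD6-AHRR and of PDCD6 in each library, with the mean ± SD (n = 3) as the black mark. AHRR holds 1 to 11 reads a library, PDCD6-AHRR 63 to 128 with no overlap between the groups, and PDCD6 overlaps.

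TIPARP (ENSG00000163659.13), the other feedback gene, lies on the plus strand at chr3:156673235-156706770 with 6 exons. Its level was 10.62, 10.14 and 10.21 FPKM in NC and 9.11, 7.12 and 8.66 in siEIF1. All 3 siEIF1 libraries lay below all 3 NC libraries, and siEIF1 replicate 2 was the lowest at 71.6% of the NC mean in CPM, against 89.3% and 83.3% in the other replicates. The log2 fold change was -0.30 (SE 0.0714) and ran from -0.37 to -0.21 with each library left out in turn. Of all tested genes, 2006 had a lower log2 fold change. The antisense gene TIPARP-AS1 had 47 to 78 reads a library, few beside the 1258 to 1706 of TIPARP. Per unit of AHR, TIPARP was 1.79, 1.6 and 1.63 as a ratio of FPKM in NC and 1.36, 1.14 and 1.34 in siEIF1, and the groups were apart.

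CYP1A1 (ENSG00000140465.14), the most used readout of AHR activity, lies on the minus strand at chr15:74719542-74725536 and has 7 exons. It was the most abundant of the 7 genes per transcript length, at 22.22, 23.43 and 25.06 FPKM in NC, from 2428 to 2867 reads. The siEIF1 libraries had 20.06, 14.61 and 13.33 FPKM, from 1619 to 2588 reads. All of them lay below the NC libraries, by unequal amounts: in CPM they held 86.2%, 64.4% and 56.1% of the NC mean. The means were 23.6 ± 1.43 and 16 ± 3.57 FPKM (SD, n = 3 each), and the log2 fold change was -0.54 (SE 0.113). It was -0.73 without siEIF1 replicate 1, the library closest to NC, and -0.41 without siEIF1 replicate 3. Of all tested genes, 785 (4.69%) had a lower log2 fold change.

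CYP1B1 (ENSG00000138061.12), on the minus strand at chr2:38066973-38109902 with 3 exons, went the other way. The NC libraries had 1.69, 1.94 and 1.83 FPKM, from 328, 406 and 372 reads. The siEIF1 libraries had 4.74, 3.73 and 3.21 FPKM, from 1090, 821 and 695 reads. The lowest siEIF1 library was well above the highest NC library, and the siEIF1 libraries were spread more widely, at 265%, 213% and 176% of the NC mean in CPM. The means were 1.82 ± 0.125 and 3.89 ± 0.778 FPKM (SD, n = 3 each), with a log2 fold change of 1.12 (SE 0.123). Without siEIF1 replicate 1 this was 0.96, just short of 2-fold, and without siEIF1 replicate 3 it was 1.26. Of all tested genes 56 (0.334%) had a higher log2 fold change, and 7 of the 13383 with a mean count of at least 50. On the opposite strand CYP1B1-AS1 had 8, 5 and 6 reads in NC and 19, 11 and 8 in siEIF1, too few to be fitted, and RMDN2, which also overlaps CYP1B1, had 47 to 75 reads a library.

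Within the siEIF1 group the 2 enzymes kept the same order, both being highest in replicate 1 and lowest in replicate 3. Their ratio spread less between the siEIF1 libraries than either level did. CYP1A1 over CYP1B1, as a ratio of FPKM, was 13.1, 12.1 and 13.7 in NC and 4.23, 3.92 and 4.15 in siEIF1. The means were 13 ± 0.822 and 4.1 ± 0.164 (SD, n = 3 each), and the groups lay far apart. Replicate 1 was thus the siEIF1 library with the largest excess of CYP1B1 over NC and the smallest deficit of CYP1A1.

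**Figure D3:**
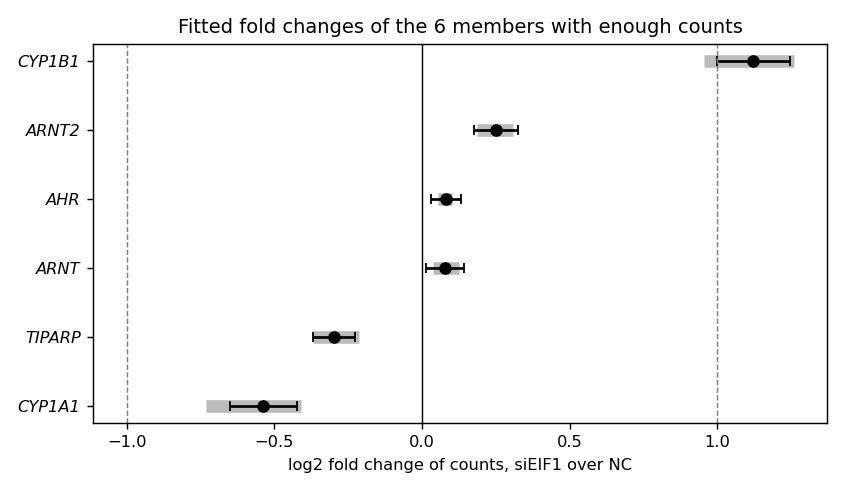
Log2 fold change of counts, siEIF1 over NC (x axis), of the 6 fitted genes, with the point as the fitted value, the error bar as its SE and the grey bar as the range when each library was left out in turn; dashed lines mark 2-fold. CYP1B1 stands at 1.12 with a range from 0.96 to 1.26, while CYP1A1 at -0.54 and TIPARP at -0.30 lie on the other side of 0.

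In the NC group the order of the 7 genes by FPKM was CYP1A1, TIPARP, AHR, ARNT, ARNT2, CYP1B1 and AHRR, and the 3 libraries of each gene did not overlap with those of its neighbours. In the siEIF1 group CYP1A1, TIPARP and AHR kept the first places in that order and AHRR the last. CYP1B1, ARNT2 and ARNT could no longer be put in order there, because their libraries overlapped.

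Among the cytochrome P450 genes CYP1A1 was one of 3 with a mean above 10 FPKM in NC. CYP24A1, the vitamin D 24-hydroxylase, had 30.8 ± 2.9 FPKM, and CYP51A1, the lanosterol demethylase of cholesterol synthesis, 21.3 ± 0.276 (SD, n = 3 each). In siEIF1 the means were 31.9 for CYP24A1 and 24.2 for CYP51A1, and CYP1A1 came after both. By group mean CYP1B1 went from place 8 in NC to place 5 in siEIF1. There its libraries (3.21 to 4.74 FPKM) overlapped those of CYP2U1 at place 4 (4.13 to 4.37). CYP1A2, which shares a regulatory region with CYP1A1 and is mainly a liver gene, had 0.04, 0.02 and 0.04 FPKM in NC and 0.13, 0.09 and 0.08 in siEIF1, too little to be tested.

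**Figure D4:**
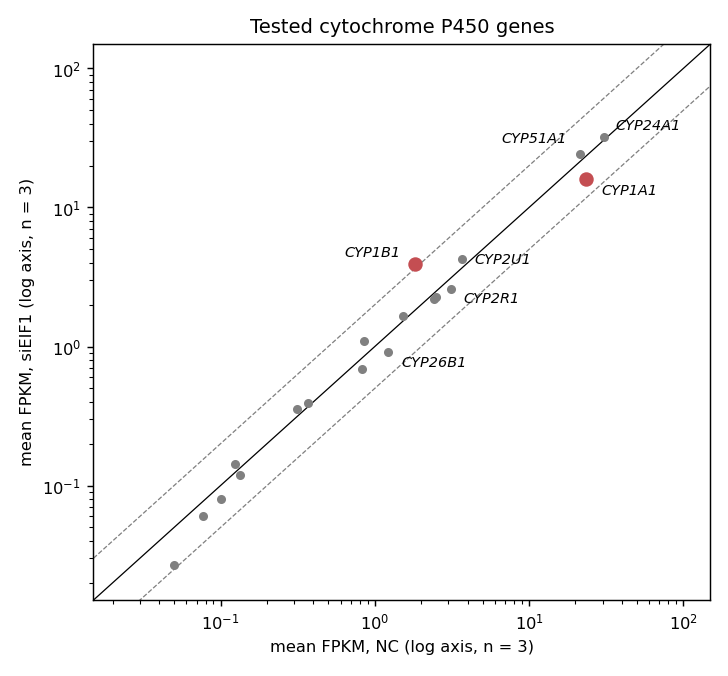
Mean FPKM in NC (x axis) against mean FPKM in siEIF1 (y axis), both log axes, n = 3 each, for the 19 tested cytochrome P450 genes; the solid line marks equal levels and the dashed lines 2-fold. CYP1B1 (1.82 against 3.89) is the point above the upper dashed line, and CYP1A1 (23.6 against 16) lies below the solid line.

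Of the other 28 cytochrome P450 genes with a row, 17 were tested: 2 rose, 2 fell and 13 did not pass. The share was 11.8% in each direction, against 10.2% higher and 10.4% lower of all tested genes. Their median log2 fold change was -0.11, beside 0.0033 for all tested genes. CYP51A1 rose by 0.21 on the log2 scale (edgeR adjusted p = 0.0102) and CYP2U1, a fatty acid hydroxylase, by 0.25 (adjusted p = 0.0194). CYP26B1, which clears retinoic acid, fell by 0.41 (adjusted p = 0.0319), and CYP2R1, a vitamin D 25-hydroxylase, fell by 0.25 (adjusted p = 0.0366). None of these 4 calls held in every setting: CYP51A1 was lost without NC replicate 3, CYP2U1 without NC replicate 1 or 2 or siEIF1 replicate 2, CYP26B1 without NC replicate 1 or 3 or siEIF1 replicate 1 or 2, and CYP2R1 without any NC replicate or siEIF1 replicate 1 or 2. By limma on log2 FPKM none of the 4 passed, and by DESeq2 CYP2R1 did not.

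Further genes of the pathway were taken from 9 lists that leave out the 7 genes and hold 170 genes between them. The lists were chosen with earlier results of these data known, so their shares are a description and not a test. Of the 170 genes, 156 had a row and 132 were tested: 18 rose (13.6%) and 23 fell (17.4%), against 10.2% and 10.4% of all tested genes. Of the 41 that passed, 15 also passed in every alternative setting and with each library left out, and 26 lost the call in at least 1. With siEIF1 replicate 2 left out 9 rose and 12 fell, and without NC replicate 1 it was 10 and 13. Without NC replicate 3 or siEIF1 replicate 1 the number that fell was 12 and 15.

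**Figure D5:**
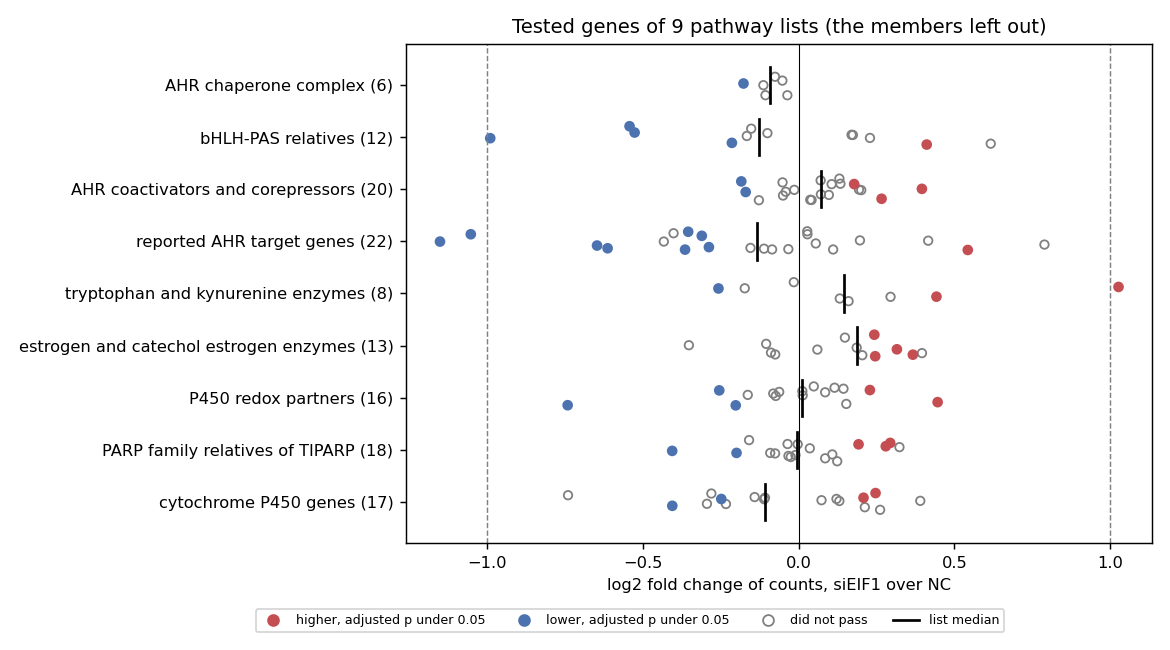
Log2 fold change of counts, siEIF1 over NC (x axis), of the tested genes of each of 9 pathway lists (number tested in brackets), filled where edgeR's adjusted p was under 0.05 and open otherwise, with the list median as a black bar and 2-fold as dashed lines. In the list of reported AHR targets 8 of 22 genes are filled below 0 (36.4%, against 10.4% of all tested genes) and 1 above 0 (4.55%, against 10.2%). The lists were chosen with earlier results of these data known.

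In the receptor's cytosolic complex 1 of 6 genes passed the test, and it fell (16.7%, against 10.4% of all tested genes). All 6 genes of the chaperone list had a log2 fold change below 0, with a median of -0.09, although HSP90AA1 was at 0.00757 without NC replicate 1. STIP1, the co-chaperone that links HSP70 to HSP90, fell by 0.18 (SE 0.0489, edgeR adjusted p = 0.0193), a call lost without NC replicate 1 or 3 or siEIF1 replicate 1 or 2. HSP90AA1, HSP90AB1 and PTGES3 had log2 fold changes of -0.04, -0.08 and -0.11 (adjusted p = 0.688, 0.313 and 0.176).

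The listed relatives of AHR and ARNT, which share the PAS domain, include other users of ARNT and the circadian factors, the PER genes among them. Of 12 tested genes, 4 fell (33.3%, against 10.4% of all tested genes), 1 rose (8.33%, against 10.2%) and 7 did not pass. CLOCK, the circadian activator, fell from 2.45, 2.35 and 2.62 FPKM to 1.23, 1.19 and 1.27 (log2 fold change -0.99, SE 0.0622, edgeR adjusted p = 5e-07). EPAS1 (HIF-2α), which pairs with ARNT under low oxygen, fell from 32.83, 27.7 and 28.56 FPKM to 19.26, 18.34 and 22.77 (log2 fold change -0.54, SE 0.0745, adjusted p = 2.14e-04). These 2 calls held in every setting. HIF1A, the other oxygen-sensitive partner of ARNT, fell by 0.21 on the log2 scale (adjusted p = 0.0136), a call lost without NC replicate 2 or 3 or siEIF1 replicate 2. PER1, a circadian repressor, fell by 0.53 (adjusted p = 0.0165, lost without NC replicate 1 or siEIF1 replicate 2), and ARNTL (BMAL1), the partner of CLOCK, rose by 0.41 (adjusted p = 0.0238, lost without NC replicate 1 or 3 or siEIF1 replicate 3 and by limma).

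Among 20 coactivators and corepressors of AHR, 3 rose, 2 fell and 15 did not pass, with a median log2 fold change of 0.07. KLF6, a zinc finger factor that forms an alternative complex with AHR, rose from 2.97 ± 0.226 to 3.85 ± 0.32 FPKM (SD, n = 3 each; log2 fold change 0.40, SE 0.0729, edgeR adjusted p = 0.00186), and held in every setting. SMARCA4, the ATPase of the BAF chromatin remodeller, rose by 0.27 (adjusted p = 0.00446) and held with each library left out, though not by limma on log2 FPKM. NCOA4, also the receptor for ferritin autophagy, rose by 0.18 (adjusted p = 0.0158, lost without NC replicate 2 or 3 or siEIF1 replicate 1). NCOA7 fell by 0.18 and RB1 by 0.17, with adjusted p of 0.0372 and 0.0315, and each was lost without any of 5 libraries. NCOA7 held without siEIF1 replicate 3 and RB1 without NC replicate 1. Both were lost by DESeq2, NCOA7 also by limma and RB1 also with no filter on low counts. Without siEIF1 replicate 1, 5 of the 20 rose. Of all tested genes, 1118 to 1709 rose with a library left out.

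Genes reported elsewhere as AHR targets, leaving out those among the 7 genes, numbered 31. Of these, 24 had a row and 22 were tested: 8 fell (36.4%, against 10.4% of all tested genes), 1 rose (4.55%, against 10.2%) and 13 did not pass, with a median log2 fold change of -0.13. Between 7 and 9 fell in every setting and with each library left out. The list was chosen with earlier results of these data known, so this share only describes it. The list mixes genes of detoxification with genes of inflammation and adhesion that other pathways also control, and UGT1A6 and 6 more of its genes were not analysed here.

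SERPINB2, an inhibitor of plasminogen activators, fell from 19.08, 17.06 and 17.4 FPKM to 8.62, 8.22 and 8.59 (log2 fold change -1.05, SE 0.0593, edgeR adjusted p = 3e-07). IL6, an inflammatory cytokine, was low, at 1.55, 0.77 and 1.16 FPKM in NC and 0.48, 0.43 and 0.63 in siEIF1, and fell by 1.15 on the log2 scale (SE 0.253, adjusted p = 0.0058). These were the 2 listed targets below 0.5-fold. NQO1, a quinone reductase that is induced by NRF2 as well as by AHR, was abundant, at 110.06, 80.01 and 91.35 FPKM in NC and 63.98, 53.62 and 63.88 in siEIF1. It fell by 0.61 (SE 0.0935, adjusted p = 4.79e-04), and its groups did not overlap.

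NEDD9, an adhesion scaffold, fell by 0.65 (adjusted p = 1.17e-04), and SLC7A5, the amino acid transporter LAT1 that also carries the AHR ligand precursors tryptophan and kynurenine, fell from 106.4 ± 5.0 to 82.1 ± 6.47 FPKM (log2 fold change -0.35, edgeR adjusted p = 7.82e-04). The rest of the 8 were STC2 (stanniocalcin 2), which fell by 0.36 (adjusted p = 2.65e-04), and the AP-1 factors FOSL1 (by 0.31, adjusted p = 0.00786) and JUNB (by 0.29, adjusted p = 0.0292). THBS1 (thrombospondin 1), the 1 gene that rose, went up by 0.54 (adjusted p = 1.05e-04). All but JUNB held in every setting; JUNB was lost without NC replicate 1 or 3 or siEIF1 replicate 1 or 2, and by limma on log2 FPKM. ALDH3A1, an aldehyde dehydrogenase and classical AHR target, had 0.12, 0.07 and 0.07 FPKM in NC and 0.12, 0.13 and 0.18 in siEIF1 and did not pass (log2 fold change 0.79, SE 0.347, adjusted p = 0.132).

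Enzymes that make or clear AHR ligands from tryptophan held 8 tested genes, of which 2 rose (25.0%, against 10.2% of all tested genes) and 1 fell (12.5%, against 10.4%). None of the 3 calls held in every setting, and all 3 were lost without NC replicate 1 or without siEIF1 replicate 2. QPRT, which takes quinolinate into NAD synthesis, rose by 0.44 (edgeR adjusted p = 0.0223, lost without NC replicate 1 or siEIF1 replicate 1 or 2 and by limma on log2 FPKM). MAOB, a monoamine oxidase at 0.09 to 0.28 FPKM, rose by 1.03 (adjusted p = 0.0338, lost without NC replicate 1 or 2 or siEIF1 replicate 2 or 3 and by DESeq2), and its relative MAOA fell by 0.26 (adjusted p = 0.0424, kept with siEIF1 replicate 1 left out and lost without any other single library, by DESeq2 and by limma).

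Of 13 tested enzymes of estrogen and catechol estrogen metabolism, the substrates shared with CYP1B1, 4 rose by edgeR's test (30.8%, against 10.2% of all tested genes). By the same test 0 fell (against 10.4%), and the median log2 fold change was 0.19. At an unadjusted p under 0.05 it was 6 and 0, by DESeq2 5 and 0, and by limma 2 and 0. The share of all tested genes at the unadjusted p or by DESeq2 is not given here, so those counts only describe the list. The number that rose was 0 without NC replicate 1 or siEIF1 replicate 2, 2 without NC replicate 3 and 8 without siEIF1 replicate 3. Of the 9 enzymes that did not pass in the main fit, 5 had a log2 fold change above 0 and 4 below 0. HSD17B11 and HSD17B2, hydroxysteroid dehydrogenases, rose by 0.37 and 0.24 (edgeR adjusted p = 0.0141 and 0.0256), SULT1A1, a phenol sulfotransferase, by 0.32 (adjusted p = 0.018), and GSTM1, a glutathione transferase, by 0.25 (adjusted p = 0.0263). The last pair have near-identical relatives, so their counts are uncertain. All 4 lost the call without NC replicate 1 or siEIF1 replicate 2. HSD17B2 did so without NC replicate 3 as well, and GSTM1 without NC replicate 2 or 3 or siEIF1 replicate 1. HSD17B2 and SULT1A1 were lost by limma too.

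Among 16 tested genes of a list of P450 electron donors, related partners and enzymes of haem breakdown, 2 rose (12.5%) and 3 fell (18.8%). The shares of all tested genes were 10.2% and 10.4%. POR, the reductase that feeds CYP1A1 and CYP1B1, had 4.75 ± 0.258 and 4.45 ± 0.235 FPKM and did not pass (log2 fold change -0.07, edgeR adjusted p = 0.453). FDXR, the mitochondrial ferredoxin reductase, rose by 0.45 (adjusted p = 0.0016) and CYB5R3, a cytochrome b5 reductase, by 0.23 (adjusted p = 0.00795), and both held in every setting. CYB5B fell by 0.20 (adjusted p = 0.0145, lost without NC replicate 1 or siEIF1 replicate 1), HMOX1, haem oxygenase, by 0.26 (adjusted p = 0.0279, lost without NC replicate 1 or 3 or siEIF1 replicate 1 or 2), and CYB5R2 by 0.74 at 0.08 to 0.21 FPKM (adjusted p = 0.036, lost without any NC replicate or siEIF1 replicate 2, by DESeq2 and by limma).

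Of 18 tested relatives of TIPARP in ADP-ribosylation, 3 rose (16.7%), 2 fell (11.1%) and 13 did not pass. The shares of all tested genes were 10.2% higher and 10.4% lower. PARP2, a DNA damage sensor, fell from 4.67, 4.1 and 4.03 FPKM to 3.08, 3.11 and 3.34 (log2 fold change -0.41, SE 0.0765, edgeR adjusted p = 0.00216), and PARP3 rose from 12.97, 13.29 and 12.99 to 15.72, 16.1 and 15.61 (0.29, SE 0.0519, adjusted p = 0.00139). Both held in every setting. PARP16, TNKS and PARP12 had log2 fold changes of 0.28, 0.19 and -0.20 (adjusted p = 0.0342, 0.0372 and 0.0221). PARP16 was lost without NC replicate 1 or 3 or any siEIF1 replicate, TNKS without NC replicate 2 or 3 or siEIF1 replicate 2 or 3, and PARP12 without NC replicate 2 or 3 or siEIF1 replicate 1. PARP16 was lost by DESeq2 and limma as well, and TNKS by limma.

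The genes whose pattern over the 6 libraries was most like that of CYP1B1 were found by the root mean square distance between log2 CPM, each centred on its own mean, over 13382 genes with a mean count of at least 50. PSG1, a pregnancy-specific glycoprotein, was nearest at 0.0835, with 0.37, 0.39 and 0.35 FPKM in NC and 0.89, 0.73 and 0.69 in siEIF1. Like CYP1B1 it was highest in siEIF1 replicate 1 and lowest in siEIF1 replicate 3. It belongs to a family of near-identical copies, so its counts are uncertain. Next came IGF2BP3, an RNA-binding protein (distance 0.15), KCNK2, a potassium channel (0.156), TPM4, a tropomyosin (0.16), and MMP24, a membrane-type metalloproteinase (0.173). KCNK2 was highest in siEIF1 replicate 1 at 212% of the NC mean in CPM, whereas MMP24 was highest in siEIF1 replicate 2 at 227%. Their log2 fold changes were 1.08 for PSG1, 0.96 for IGF2BP3, 0.85 for KCNK2, 1.18 for TPM4 and 1.02 for MMP24. All of these were chosen for their likeness in the same 6 libraries, which is a description and not a test.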

How the data were processed

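Reads were 150 nt paired-end, from strand-specific libraries of polyadenylated RNA. The authors trimmed them (FASTX-Toolkit 0.0.13), aligned them to GRCh38 with HISAT2, and deposited raw read counts per gene for 30618 genes and FPKM per gene for 30275 of them. The counting program and its strand setting were not given in the sources used here.

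Counts were tested with edgeR 4.0.16 in R 4.3.3 (filterByExpr, TMM, glmQLFit, glmQLFTest, Benjamini-Hochberg over the 16749 genes kept), all 6 libraries in 1 fit with no covariate. Library totals were 26499929 to 31431479. DESeq2 1.42.0, limma 3.58.1 on log2(FPKM + 1) and log2(FPKM + 0.1), other filters and scalings, a replicate block and each library left out were the alternatives. FPKM as deposited gave the levels. On simulated counts with 200 2-fold changes in 16539 genes, 198 were recovered with 6 false calls. The changed genes had a mean count of at least 50, and both groups were given the same spread. Recovery of smaller changes was not examined. P-values measure the spread between these replicates only.

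The 7 genes and the lists were chosen with earlier results of these data known. Named were all 7 genes, EIF1, up to 4 genes a list with the largest log2 fold change among those with an adjusted p under 0.05 and a mean count of at least 50 (lists with 5 or fewer whole), some fixed genes (AHR chaperones, classical targets, HIF1A, EPAS1, POR), overlapping genes and the 5 nearest to CYP1B1. STC2, FOSL1, JUNB, THBS1, MAOB, CYB5R2 and CYP24A1 were named after their values were seen. Positions of whole genes came from GENCODE release 44 (GRCh38) by gene symbol, with exons counted on the canonical transcript, and promoters from RefSeq. Some listed genes are not reported here by name.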

Additional observations from a re-analysis of the deposited data

How the results depend on the processing

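On log2(FPKM + 1) with limma, which shrinks the fold of genes with low values, CYP1B1 was 0.784 rather than 1.12 on the log2 scale. No called value changed direction in any setting run. With each library left out, the log2 fold changes ran from 0.956 to 1.26 for CYP1B1, -0.732 to -0.409 for CYP1A1, -0.369 to -0.212 for TIPARP, 0.188 to 0.309 for ARNT2, 0.0546 to 0.101 for AHR, 0.0389 to 0.125 for ARNT and -3.61 to -3.56 for EIF1. Genes that rose numbered 1702 of all tested, 1067 and 1071 by limma on log2(FPKM + 1) and log2(FPKM + 0.1), and 1118 to 1709 with a library left out, and those that fell numbered 1744, and 1124 to 1763. Of the listed pathway genes 18 rose, 9 by limma on either scale and 9 to 20 with a library left out, and 23 fell, 12 to 23 with a library left out. Whether libraries with the same replicate number were handled as pairs was not given in the sources used here. Deviations of same-numbered libraries correlated at 0.152, 0.0907 and 0.123, and those of other pairs at -0.18 to 0.0756. Each library correlated best with its own number, and the main fit did not pair them. With a replicate block CYP1B1 was 1.11 and CYP1A1 -0.555, 2149 of all tested genes rose and 2128 fell, and 23 and 24 of the listed genes did. AHRR, at 1 to 11 reads a library, and the genes with low FPKM are limited by depth.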
